A study of Mus musculus with 12 samples.

Results

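Presynaptic release machinery is the name used here for 38 genes that load, dock, fuse and retrieve synaptic vesicles at the nerve terminal. They were chosen by symbol from the deposited gene table, where all 38 of the symbols were found among 31208 genes. The table holds nanopore RNA-seq counts of the brains of 12 C57BL/6 mice aged 8 weeks, male according to the methods of the study, with 4 mice in each of 3 groups. Sham mice had no arterial occlusion, and whether they received an intracerebral injection is not stated in the sources used here. Vehicle mice received 2 µL of sterile saline into the cerebral ventricle at 24 h before occlusion of the left middle cerebral artery, and lactate mice received 2 µL of 100 mmol/L lactate in the same way. The labels give the agent as lactate and the methods name D-lactate. Both ischemic groups were sampled at 6 h after ischemia. The comparisons ask how the RNA of these genes differed after stroke and after added lactate, and both comparisons with sham use the same 4 sham mice. The samples are labelled as brain tissue without a region or a side, and mice without symptoms or dead before sampling were excluded by the study.

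A synaptic vesicle is filled with transmitter by a vesicular transporter, is tethered to the active zone by Rab3, RIM and Munc13 proteins, and fuses with the membrane when the SNARE proteins on vesicle and membrane zip together. Synaptotagmins sense the calcium that triggers fusion, complexins hold and then aid the SNARE complex, and NSF with its SNAP adaptors takes the used complexes apart. The vesicle membrane is then retrieved by clathrin, amphiphysin, endophilin, dynamin and synaptojanin. In brain tissue these transcripts come mainly from neurons, so in a bulk sample fewer neurons and less RNA per neuron cannot be told apart.

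Total counts ranged from 6815920 to 10677224 per mouse, with vehicle mouse 1 the deepest, and 3 counts correspond to between 0.281 and 0.440 CPM, a count scaled to the total of its mouse. All 38 members passed the filter of at least 1 CPM in at least 4 of the 8 mice of each comparison. The 14 pan-neuronal marker genes fixed for a check of the tissue summed to between 6550 and 7377 CPM in the 12 mice, and 0 of them were called by edgeR in any of the 3 comparisons. Markers of cortical and hippocampal excitatory neurons varied within every group, from 2242 to 5437 summed CPM in sham, from 2388 to 6154 in vehicle and from 2054 to 5610 in lactate mice. Between lactate and sham, 4 of the marker sums did not overlap. Striatal projection neuron markers summed to 478 to 785 CPM in sham and 814 to 946 CPM in lactate mice, microglia markers to 283 to 325 and 373 to 409 CPM, endothelial markers to 177 to 188 and 214 to 260 CPM, and choroid plexus markers to 1.22 to 4.35 and 9.46 to 18.6 CPM. The markers within a list did not all go one way. In lactate against sham edgeR called 2 microglia markers higher and 1 lower of 8, 2 endothelial markers higher and 1 lower of 8 with a median log2 fold change of -0.01, 1 striatal marker higher of 10 and the 1 choroid plexus marker tested higher. Of other lists it called 3 neutrophil and blood markers higher and 3 lower of 6 tested, 2 astrocyte markers higher of 9, 2 oligodendrocyte markers lower of 8, 1 cortical marker lower of 10 and 2 early genes lower of 10. Choroid plexus markers summed to 1844 CPM in vehicle mouse 2 and to at most 18.6 CPM elsewhere, and the part of these marker differences in the changes of Stx1a, Rims2 and Amph and in the other results was not tested.

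Most genes of the release machinery were not called in either ischemic group. A gene was called at a Benjamini-Hochberg adjusted p under 0.05 over all genes tested by edgeR's quasi-likelihood test. In vehicle against sham, 0 of 38 members were called, where 1.47% of all 17019 genes were called, 1.29% higher and 0.182% lower. In lactate against sham, 3 of 38 members were called, Stx1a and Rims2 lower and Amph higher, or 7.89% of members where 12.3% of all 17262 genes were called. Of all genes, 8.76% were called higher, beside 1 member, and 3.55% lower, beside 2 members. In lactate against vehicle, 0 members were called, where 0.00574% of all genes, a single gene, was called. At an unadjusted p under 0.05 the members numbered 3, 8 and 3 in these comparisons, against 13.8%, 27.1% and 8.84% of all genes. Asking for a fold change of at least 1.5 as well left 1 member (Syn3), 0 and 0 members, against 9.52%, 17.5% and 6.23% of all genes. DESeq2 and limma also called 0 members in vehicle against sham and in lactate against vehicle.

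The precision of the members bounds most of these differences. The 95% interval of the log2 fold change lay within 1.5-fold in either direction for 27 of 38 members in vehicle against sham, for 30 in lactate against sham and for 25 in lactate against vehicle. The same held for 27.1%, 32.1% and 26.7% of all genes tested. The median log2 fold change of the members was 0.06, -0.04 and -0.09 in the 3 comparisons, beside 0.0031, -0.03 and -0.03 over all genes.

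**Figure D1:**
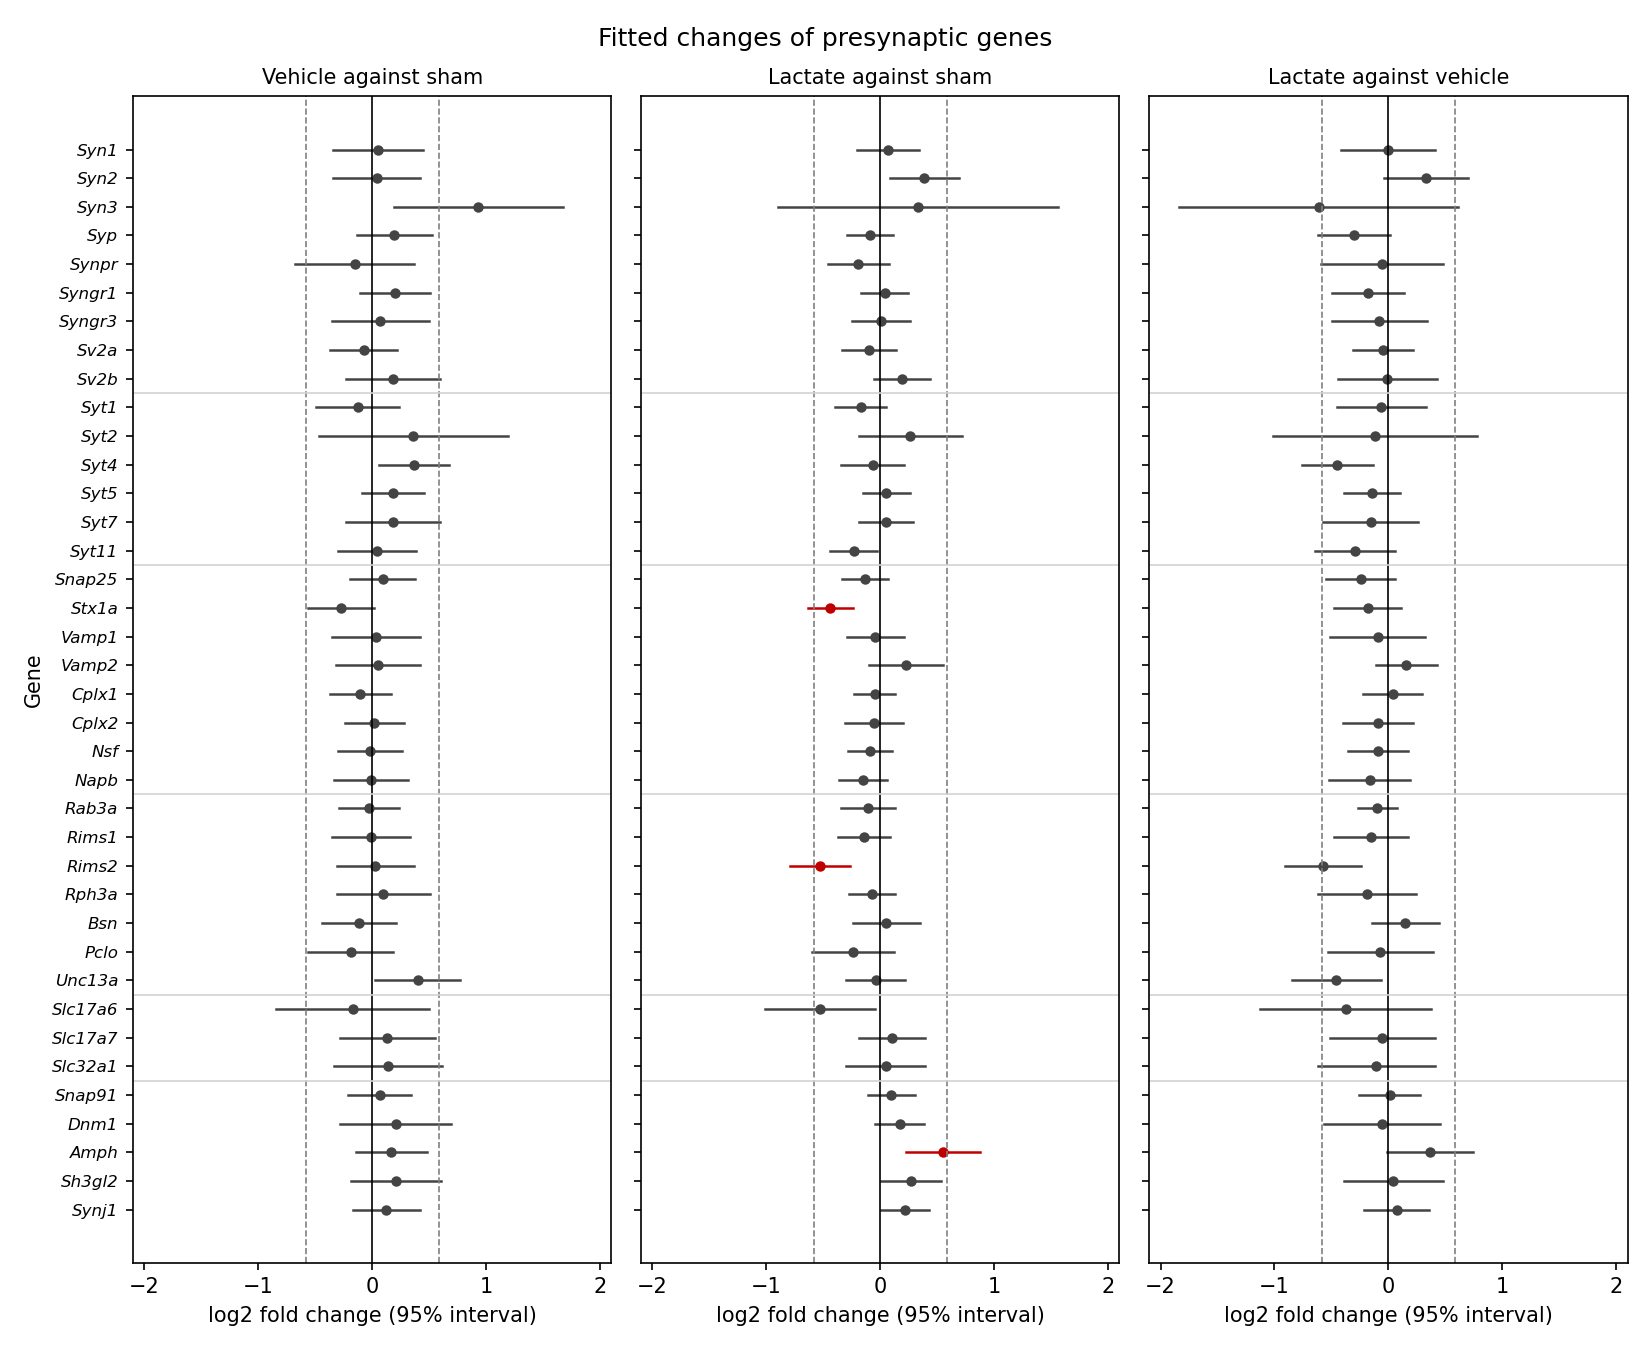
Fitted log2 fold change (x axis) of each of the 38 genes (y axis, grouped by role) in the 3 comparisons, with bars for the 95% interval, red where the gene was called and dashed lines at a fold change of 1.5 in either direction. Stx1a and Rims2 lie below 0 and Amph above 0 in lactate against sham, and 27, 30 and 25 intervals lie between the dashed lines.

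Among the SNARE proteins and their helpers, Stx1a was the called member. Stx1a (ENSMUSG00000007207, chr5:135023482-135051100 on the forward strand of GRCm38) encodes syntaxin 1A, the membrane SNARE that pairs with SNAP-25 and synaptobrevin. Its level was 392, 333, 390 and 338 CPM in sham mice 1 to 4, 306, 353, 274 and 240 CPM in vehicle mice, and 286, 245, 250 and 267 CPM in lactate mice. All 4 lactate mice lay below all 4 sham mice, while the vehicle mice spread across both ranges. Stx1a fell from 363 ± 32.01 to 262 ± 18.5 CPM (SD, n = 4 each) from sham to lactate mice, a log2 fold change of -0.44 (SE 0.09, edgeR with Benjamini-Hochberg adjusted p = 0.0081), or 26.2% lower. Against sham the vehicle mice gave -0.27 (SE 0.13, edgeR with Benjamini-Hochberg adjusted p = 0.398), and the direct comparison of lactate with vehicle gave -0.18 (95% interval -0.48 to 0.11).

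The promoter of Stx1a is shown because the RNA of this gene was lower in every lactate mouse than in every sham mouse. It covers chr5:135023232-135023531 of GRCm38.p6, forward strand, from 250 bases before to 50 bases after the start in RefSeq, and capitals mark matches to 6 short motifs searched on both strands.
Stx1a: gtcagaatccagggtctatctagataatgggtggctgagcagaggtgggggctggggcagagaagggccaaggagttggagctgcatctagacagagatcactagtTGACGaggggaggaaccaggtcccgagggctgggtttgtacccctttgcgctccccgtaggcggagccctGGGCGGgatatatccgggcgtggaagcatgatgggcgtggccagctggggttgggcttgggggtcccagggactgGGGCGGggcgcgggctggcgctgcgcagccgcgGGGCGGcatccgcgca
It held 3 GC boxes (GGGCGG) and 1 short CRE (TGACG). Each match is a description of letters and not a measured site.

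The other 7 members of the SNARE group were not called in any comparison. Snap25, which encodes the second membrane SNARE, ranged from 534 to 837 CPM over the 12 mice and gave -0.13 (SE 0.09) in lactate against sham. Vamp2, the main vesicle SNARE of the forebrain, ranged from 868 to 1528 CPM and gave 0.23 (95% interval -0.10 to 0.55). Vamp1, Cplx1, Cplx2 and Nsf each gave a log2 fold change between -0.10 and 0.04 in all 3 comparisons, and all of their 95% intervals lay within 1.5-fold. Napb, the neuronal SNAP adaptor of NSF, was even in sham mice at 436 to 448 CPM and lay at 323 to 436 CPM in lactate mice. Its groups were apart in CPM by a narrow margin only, at 435.66 in lactate mouse 3 and 435.96 in sham mouse 1. The interval of its log2 fold change reached from -0.37 to 0.06 (edgeR with Benjamini-Hochberg adjusted p = 0.337). Over the members, 4 were lower in lactate than in sham without overlap, Stx1a, Napb, Rims2 and Syt11, and 0 were higher. The shares over all genes were 8.74% lower and 10.4% higher.

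Of the active zone and Rab3 group, Rims2 was called. Rims2 (ENSMUSG00000037386, chr15:39198261-39684372 on the forward strand) encodes RIM2, a scaffold that binds Rab3, Munc13 and calcium channels at the release site. Its level was 36.8, 30.4, 38.6 and 38.4 CPM in sham mice 1 to 4, 39.2, 39.5, 29.0 and 35.4 CPM in vehicle mice, and 23.0, 25.6, 24.4 and 24.7 CPM in lactate mice. Every lactate mouse lay below every sham mouse and every vehicle mouse. Rims2 fell from 36.0 ± 3.82 to 24.4 ± 1.09 CPM (SD, n = 4 each), a log2 fold change of -0.53 (SE 0.12, edgeR with Benjamini-Hochberg adjusted p = 0.0140), or 30.6% lower. Vehicle mice stood at 35.8 ± 4.90 CPM, with 0.03 (95% interval -0.31 to 0.37) against sham. The direct comparison of lactate with vehicle gave -0.57 (SE 0.15), of much the same size as against sham, and was not called (unadjusted p = 0.00302, edgeR with Benjamini-Hochberg adjusted p = 0.466). Over the other processing settings that adjusted p ranged from 0.0997 to 0.757. Its counts were 170 to 419 per mouse.

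Rims2, Syt4 and Unc13a were the 3 members whose lactate mice all lay below the vehicle mice, where 1.83% of all genes were lower without overlap, and 0 members were higher, where 2.99% of all genes were. Unc13a (ENSMUSG00000034799, chr8:71624417-71671757 on the reverse strand) encodes Munc13-1, which primes docked vesicles for fusion. Its level was 32.3, 28.1, 33.0 and 28.6 CPM in sham, 52.3, 31.7, 36.4 and 36.1 CPM in vehicle, and 26.1, 31.0, 29.7 and 29.3 CPM in lactate mice 1 to 4. Vehicle mouse 1 stood well above the other 11 mice, and the lactate mice overlapped the sham mice. The fits gave 0.40 (SE 0.17, edgeR with Benjamini-Hochberg adjusted p = 0.331) for vehicle against sham and -0.46 (SE 0.18, edgeR with Benjamini-Hochberg adjusted p = 0.526) for lactate against vehicle. With single mice left out or other settings, these values ranged from 0.22 to 0.49 and from -0.54 to -0.27.

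The remaining active zone members were not called. Rab3a, the vesicle GTPase that recruits RIM, lay between 1875 and 2675 CPM and gave log2 fold changes of -0.03, -0.11 and -0.10 in the 3 comparisons. Rims1, the RIM1 gene, gave -0.0071 in vehicle and -0.14 in lactate mice against sham, with both 95% intervals within 1.5-fold. Bsn and Pclo, which encode the giant scaffolds bassoon and piccolo, gave 0.05 and -0.24 in lactate against sham with opposite signs. The Rab3 effector gene Rph3a ranged from 294 to 635 CPM, and both ends were vehicle mice.

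Amph was the member that rose. Amph (ENSMUSG00000021314, chr13:18948205-19150921 on the forward strand) encodes amphiphysin, which binds curved membrane and brings dynamin to the neck of the retrieved vesicle. Its level was 264, 196, 252 and 258 CPM in sham, 225, 249, 258 and 330 CPM in vehicle, and 415, 413, 301 and 259 CPM in lactate mice 1 to 4. Lactate mice 1 and 2 were the highest of all 12 mice, and lactate mouse 4 lay inside the sham range, so the groups overlapped. Amph rose from 242 ± 31.6 to 347 ± 79.1 CPM (SD, n = 4 each), a log2 fold change of 0.55 (SE 0.15, edgeR with Benjamini-Hochberg adjusted p = 0.0288), or 46.8% higher. Leaving out a mouse ended the call in 6 of 8 cases, with adjusted p up to 0.0860, and so did limma, with 0.0596. Against vehicle, lactate gave 0.37 (95% interval -0.01 to 0.75).

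The promoter of Amph is shown beside that of Stx1a because these called members moved in opposite directions. It covers chr13:18948101-18948400 of GRCm38.p6, forward strand.
Amph: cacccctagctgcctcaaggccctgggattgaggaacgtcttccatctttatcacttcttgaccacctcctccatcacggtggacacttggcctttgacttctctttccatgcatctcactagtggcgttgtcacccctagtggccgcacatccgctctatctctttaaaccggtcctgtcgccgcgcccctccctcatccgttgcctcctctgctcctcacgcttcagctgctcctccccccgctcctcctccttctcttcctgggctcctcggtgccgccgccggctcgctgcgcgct
None of the 6 motifs was found in these letters, so it carries no capitals.

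**Figure D2:**
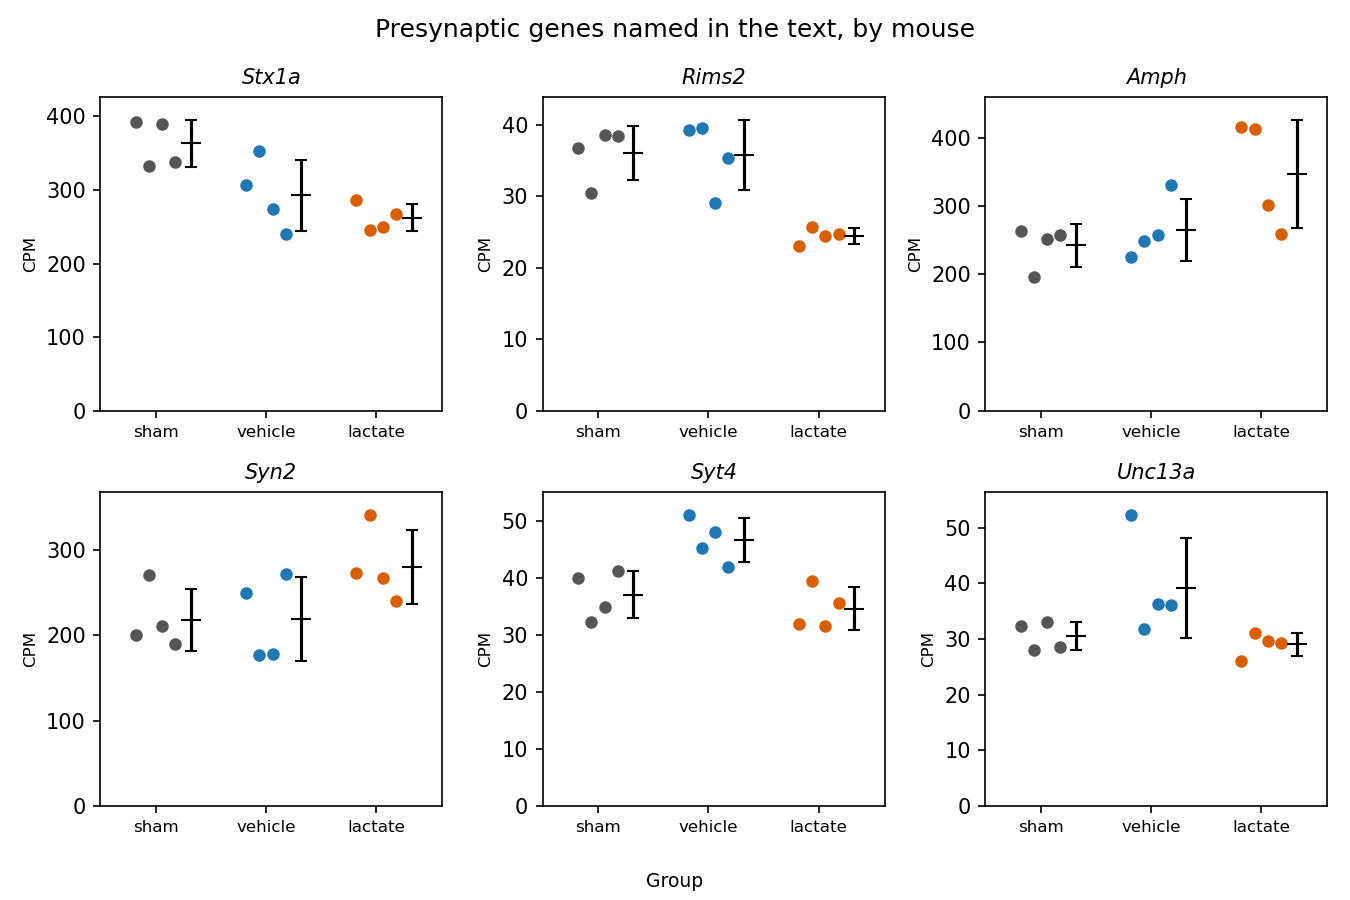
CPM (y axis) of Stx1a, Rims2, Amph, Syn2, Syt4 and Unc13a in each mouse of the 3 groups (x axis), with the group mean and SD as bars. The 4 lactate mice lie below the 4 sham mice for Stx1a and Rims2, and the lactate mice of Amph spread from 259 to 415 CPM.

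The 5 endocytosis members all had fitted values above 0 in both comparisons with sham, which use the same sham mice. Of all genes tested, 49.6% were below 0 in vehicle against sham and 53.1% in lactate against sham. Without vehicle mouse 1, Dnm1 and Sh3gl2 gave -0.147 and -0.0061 in vehicle against sham, so the shared sign there rests on this mouse. In lactate against sham, Sh3gl2 (endophilin A1) gave 0.27 (SE 0.12) and Synj1 (synaptojanin 1, a lipid phosphatase that uncoats vesicles) gave 0.22 (SE 0.10). Dnm1 (dynamin 1, which cuts the vesicle free) gave 0.17 (SE 0.10) and Snap91 (the clathrin adaptor AP180) gave 0.10 (SE 0.09). None of these 4 was called, with edgeR and Benjamini-Hochberg adjusted p from 0.169 to 0.552. Their summed level with Amph was 1023 to 1303 CPM in sham and 1247 to 1535 CPM in lactate mice, so the ranges overlapped.

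Synapsins coat the vesicle and tie it to the reserve pool, and none of the 3 synapsin genes was called. Syn1 ranged from 116 to 206 CPM over the 12 mice and gave 0.05 (95% interval -0.35 to 0.45) in vehicle and 0.07 (95% interval -0.21 to 0.34) in lactate mice against sham. Syn2 stood at 201, 271, 210 and 190 CPM in sham, 250, 177, 178 and 272 CPM in vehicle, and 273, 341, 267 and 240 CPM in lactate mice 1 to 4. Apart from sham mouse 2, the sham mice lay below all lactate mice. The log2 fold change of Syn2 in lactate against sham was 0.39 (SE 0.14, edgeR with Benjamini-Hochberg adjusted p = 0.0881), and without sham mouse 2 it was 0.53 and was called. Syn3 was near the limit of counting, with 1 to 20 counts per mouse. It stood at 0.791, 0.780, 1.36 and 1.11 CPM in sham, 1.87, 1.68, 2.49 and 1.47 CPM in vehicle, and 2.57, 1.44, 0.923 and 0.116 CPM in lactate mice 1 to 4. All vehicle mice lay above all sham mice, while the lactate mice held both the highest and the lowest value, the latter a single count. Vehicle against sham gave 0.93 (SE 0.34, edgeR with Benjamini-Hochberg adjusted p = 0.254), lactate against sham 0.33 (SE 0.57) and lactate against vehicle -0.61 (SE 0.56). Syn3 and Syt4 were the 2 members higher in vehicle than in sham without overlap, where 4.14% of all genes were, and 0 members were lower, where 4.89% were.

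Each synapsin gene holds a gene of a tissue inhibitor of metalloproteinases inside it, on the opposite strand. Timp1 lies within Syn1 at chrX:20870166-20874735, Timp4 within Syn2 at chr6:115241892-115252205 and Timp3 within Syn3 at chr10:86300372-86349506 in GRCm38. Whether reads were counted by strand is not given in the sources used here, so the division of reads between the genes of each pair is not known in full. In sham mice, where Syn1 stood at 116 to 160 CPM, few reads were counted for Timp1. Timp1 stood at 0.407 to 0.863 CPM in sham, 7.12 to 14.8 CPM in vehicle and 22.9 to 32.3 CPM in lactate mice. Timp1 rose by a log2 fold change of 4.20 (SE 0.35, edgeR with Benjamini-Hochberg adjusted p = 2.23e-05) in vehicle and 5.59 (SE 0.25, edgeR with Benjamini-Hochberg adjusted p = 2.77e-08) in lactate mice, while Syn1 around it stayed within the intervals above. In lactate against sham, Timp4 rose by 0.73 (SE 0.12, edgeR with Benjamini-Hochberg adjusted p = 0.0027) and Timp3 by 0.67 (SE 0.13, edgeR with Benjamini-Hochberg adjusted p = 0.0050). In vehicle against sham, where all vehicle mice were also higher for Syn3, Timp3 gave 0.69 (SE 0.17, edgeR with Benjamini-Hochberg adjusted p = 0.0793), with 40.7 to 56.4 CPM in sham and 57.1 to 96.1 CPM in vehicle mice, without overlap. For Syn3, at most 20 counts stand beside 365 to 772 counts of Timp3, and how far reads of one were counted for the other was not tested. In all, 9 members overlap a coding gene on the other strand.

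**Figure D3:**
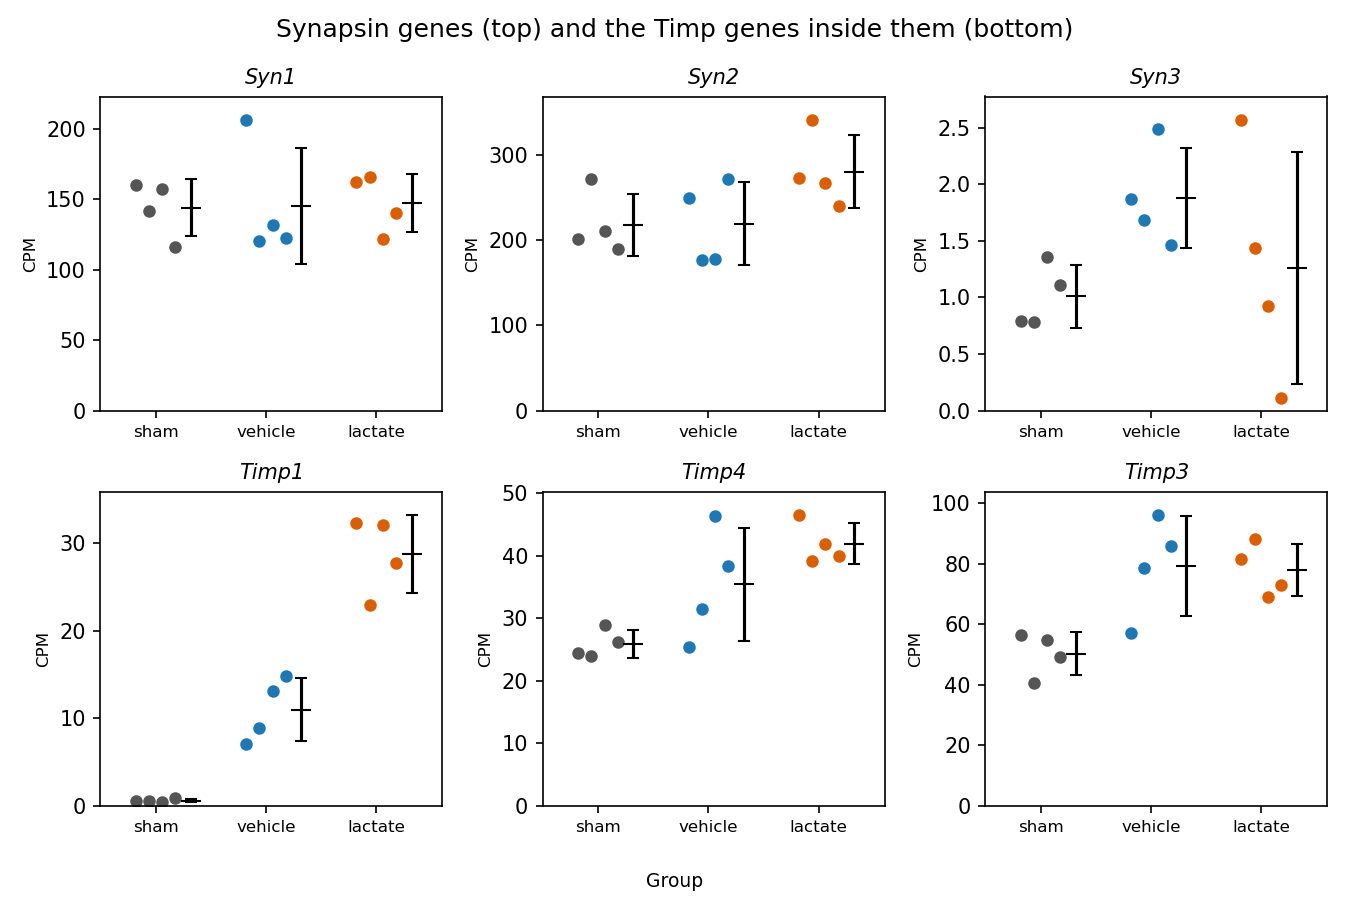
CPM (y axis) of the synapsin genes and of the Timp gene that lies inside each of them in every mouse of the 3 groups (x axis), with the group mean and SD as bars. Timp1 rises from under 1 CPM in sham to over 22 CPM in lactate mice, while Syn1 stays between 116 and 206 CPM.

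The promoter of Syn1 is shown with that of Unc13a because both hold the left arm of the RE1 element (TTCAGCACC), the binding sequence of the repressor REST that keeps many neuronal genes silent outside neurons. The Syn1 window is chrX:20920869-20921168 and the Unc13a window chr8:71671708-71672007 of GRCm38.p6, both on the reverse strand.
Syn1: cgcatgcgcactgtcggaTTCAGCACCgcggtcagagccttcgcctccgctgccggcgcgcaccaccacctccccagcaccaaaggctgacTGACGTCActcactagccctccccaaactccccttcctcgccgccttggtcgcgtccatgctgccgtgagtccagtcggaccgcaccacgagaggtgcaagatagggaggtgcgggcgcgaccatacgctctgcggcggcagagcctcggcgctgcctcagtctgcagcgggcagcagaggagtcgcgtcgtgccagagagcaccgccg
Unc13a: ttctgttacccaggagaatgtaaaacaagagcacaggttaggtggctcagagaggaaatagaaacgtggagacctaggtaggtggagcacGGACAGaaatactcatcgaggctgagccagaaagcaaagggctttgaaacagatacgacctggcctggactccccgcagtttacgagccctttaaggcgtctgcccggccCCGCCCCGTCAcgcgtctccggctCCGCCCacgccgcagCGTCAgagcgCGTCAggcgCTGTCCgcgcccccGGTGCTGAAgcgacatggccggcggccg
In Syn1 the RE1 arm starts at position -232 from the RefSeq start and a CRE (TGACGTCA, the element read by CREB) at position -159. In Unc13a the same arm lies on the opposite strand just after the start. Of the members, 30 matched the RefSeq table, with 42 promoters of 32851 of the same length. The RE1 left arm was in 2 member promoters, those of Syn1 and Unc13a, or 4.76%, and in 0.371% of all promoters. The right arm (GGACAG) was in 31% and 22.2%. The CRE was in 2 member promoters, or 4.76%, and in 1.79% of all promoters. The short CRE, which also lies inside each CRE, was in 21.4% and 20.8%, the GC box in 57.1% and 35.7%, and the TATA box (TATAAA) in 4.76% and 13.6%. The median GC content was 61.8% in member promoters and 52.7% in all promoters. Syt4, Syt5, Syt7, Vamp2, Snap25, Rims2, Syngr3 and Syn3 had no matching entry in the set of RefSeq promoters used here.

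Of the other vesicle membrane proteins, Syp (synaptophysin, an abundant vesicle protein) gave 0.19 (SE 0.15) in vehicle and -0.09 (SE 0.09) in lactate mice against sham. Sv2a, the binding partner of the antiepileptic drug levetiracetam, gave -0.07 and -0.10, and its relative Sv2b gave 0.18 and 0.19. Syngr1, Syngr3 and Synpr, which encode synaptogyrins and synaptoporin, gave 0.04, 0.0053 and -0.19 in lactate against sham. None of these 6 genes was called in any comparison.

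Synaptotagmin genes were not called either. Syt1, the main calcium sensor for fast release in the forebrain, ranged from 1273 to 2246 CPM and gave -0.13 (SE 0.17) in vehicle and -0.17 (SE 0.10) in lactate mice against sham. Syt4, which lacks the calcium response of Syt1 and is induced by neuronal activity, stood at 39.96, 32.3, 34.9 and 41.2 CPM in sham, 51.0, 45.3, 48.1 and 42.0 CPM in vehicle, and 31.9, 39.5, 31.5 and 35.6 CPM in lactate mice 1 to 4. All 4 vehicle mice were above the other 8 mice. The fits gave 0.37 (SE 0.14, edgeR with Benjamini-Hochberg adjusted p = 0.279) for vehicle against sham, -0.07 (SE 0.13) for lactate against sham and -0.45 (SE 0.14, edgeR with Benjamini-Hochberg adjusted p = 0.493) for lactate against vehicle. A list of 10 activity-induced early genes ranged from 181 CPM or less in vehicle mice 1 and 4 to 917 and 2395 CPM in vehicle mice 2 and 3. Of these 10 genes, 9 had fitted values above 0 in vehicle against sham (median 1.16), 9 below 0 in lactate against sham (median -1.01) and 10 below 0 in lactate against vehicle (median -1.72). The part of these genes' differences in the values of Syt4 was not tested. Syt11, which restrains vesicle retrieval, stood at 282 to 350 CPM in sham and 229 to 272 CPM in lactate mice, with -0.23 (SE 0.09, edgeR with Benjamini-Hochberg adjusted p = 0.129). Syt5 and Syt7 gave 0.05 each in lactate against sham. Syt2, the sensor of hindbrain and fast inhibitory neurons, was low at 3.96 to 19.9 CPM, with intervals beyond 1.5-fold in all 3 comparisons.

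The vesicular transporters set which transmitter a vesicle carries. Slc17a7 (VGLUT1, the glutamate carrier of cortical neurons) ranged from 266 to 512 CPM, and Slc32a1 (VGAT, the carrier of GABA and glycine) from 8.51 to 16.8 CPM. In lactate against sham they gave 0.10 (SE 0.13) and 0.05 (SE 0.16). Slc17a6 (VGLUT2, the carrier of thalamic and brainstem neurons) stood at 6.33, 5.24, 6.52 and 7.15 CPM in sham, 4.59, 4.79, 3.11 and 9.54 CPM in vehicle, and 2.97, 4.07, 5.41 and 4.64 CPM in lactate mice 1 to 4. Lactate mouse 3 lay inside the sham range and the other 3 lactate mice below it, while the vehicle mice spread past both ends. Slc17a6 gave -0.53 (SE 0.22, edgeR with Benjamini-Hochberg adjusted p = 0.148) in lactate against sham. The 8 markers of thalamic and midbrain neurons summed to 55.4 to 68.7 CPM in sham and 47.7 to 65.0 CPM in lactate mice.

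Vehicle mouse 1 stood apart from the other mice in these genes. It held the highest level of all 12 mice for 21 of 38 members, or 55.3%, where it was highest for 16.2% of the 18134 genes with at least 1 CPM in at least 4 mice. In 12 members, or 31.6%, it stood at least 1.5-fold above the mean of the other 3 vehicle mice, where 17.4% of all genes did. The members summed to 15132 CPM, beside 11704 to 13019 CPM in the other 11 mice. Dnm1 stood at 824 CPM in vehicle mouse 1 and at a mean of 392 CPM in the other 3 vehicle mice, Syt1 at 2246 and 1342 CPM, and Slc17a7 at 512 and 288 CPM. Synpr and Syngr3 went the other way, at 31.5 and 66.7 CPM and at 108 and 196 CPM, and were at their lowest of all mice. Rab3a, Stx1a, Rims1 and Bsn were within 10% of the other vehicle mice. In this mouse the pan-neuronal markers summed to 7042 CPM, inside the range of the other mice. Its cortical markers summed to 6154 CPM, the highest of all. Vehicle mouse 2 held the next highest cortical sum, 5990 CPM, and the lowest member sum of the 12 mice, 11704 CPM. The library of vehicle mouse 1 was also the deepest, and the part of depth or of the tissue piece taken was not tested.

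The spread of the members was widest in the vehicle group. The median coefficient of variation over the 37 members other than Syn3 was 10.7% in sham, 22.0% in vehicle and 10.6% in lactate mice, and 11.2% in vehicle mice without mouse 1. Over the 4433 genes above 20 CPM in every mouse it was 10.8%, 16.2% and 10.5% in the 3 groups, and 10.6% in vehicle mice without mouse 1. In lactate against vehicle, 30 of 38 members had a fitted value below 0, where 54.4% of all genes tested did. The median log2 fold change of the members in that comparison was -0.09 with all mice and 0.04 without vehicle mouse 1, so its sign rests on this mouse. In vehicle against sham the median was 0.06 with all mice and -0.03 without it.

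**Figure D4:**
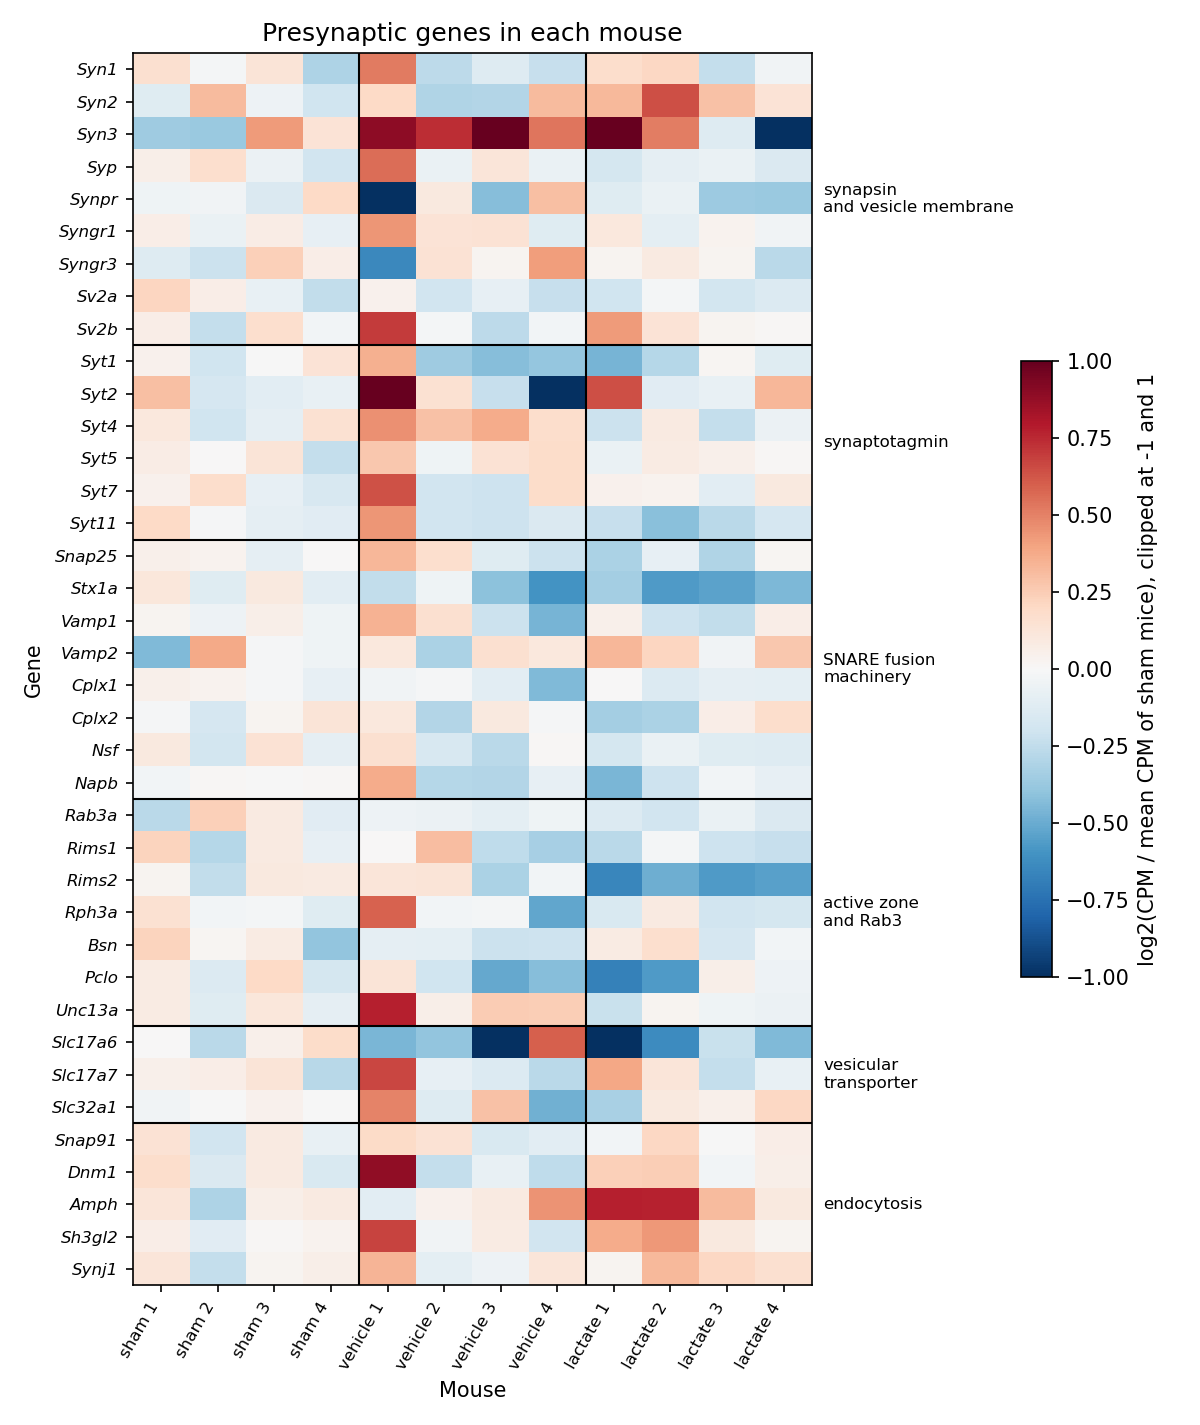
Log2 ratio of the CPM in each mouse (x axis) to the mean of the sham mice for each of the 38 genes (y axis, grouped by role), with colours clipped at -1 and 1. The column of vehicle mouse 1 is the reddest, and the row of Rims2 is blue in all 4 lactate mice.

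**Figure D5:**
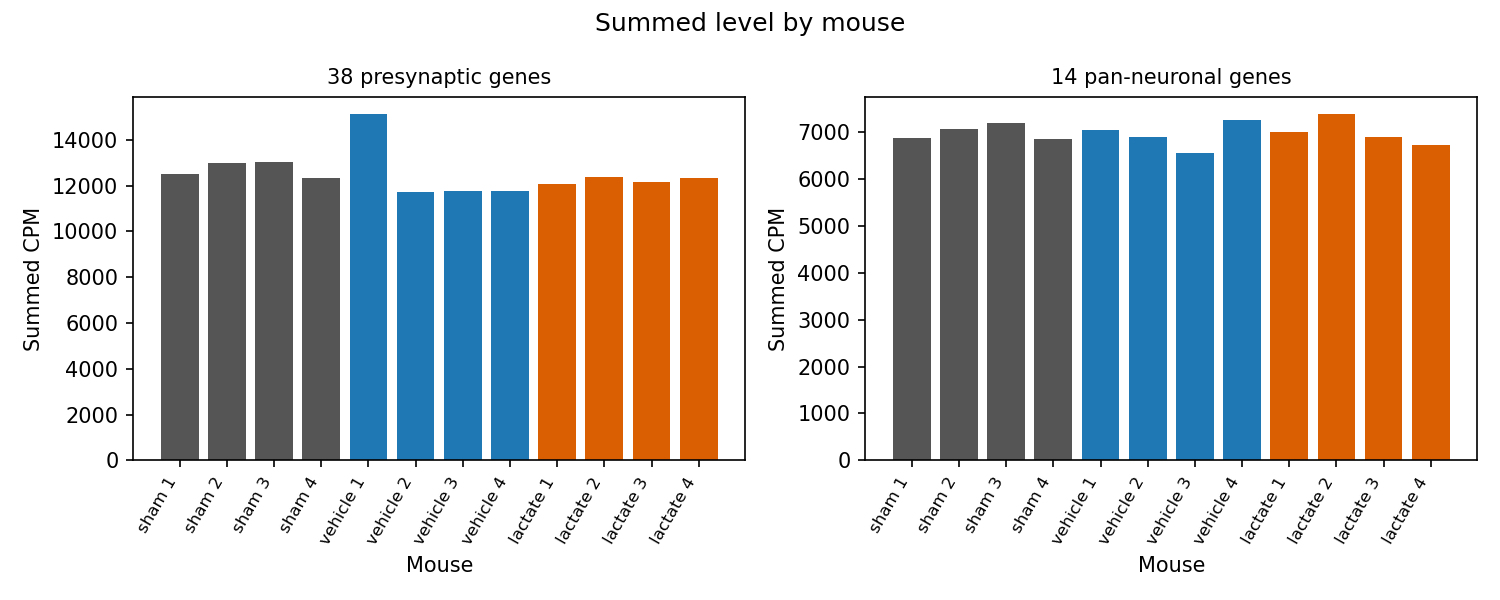
Summed CPM (y axis) of the 38 presynaptic genes and of 14 pan-neuronal marker genes in each mouse (x axis), coloured by group. Vehicle mouse 1 reaches 15132 CPM in the presynaptic sum, while the pan-neuronal sum lies between 6550 and 7377 CPM in all mice.

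The rest of the release pathway comprised 88 further genes, of which 86 were in the table and 82 were tested in each comparison. In vehicle against sham and in lactate against vehicle 0 of these genes were called, beside 1.47% and 0.00574% of all genes. At an unadjusted p under 0.05 they numbered 6 and 5, against 13.8% and 8.84% of all genes. In lactate against sham 9 were called, 6 higher and 3 lower, or 11% of those tested beside 12.3% of all genes. Rimbp2, which encodes a scaffold that links RIM proteins to calcium channels, stood at 24.2 to 30.6 CPM in sham and 38.7 to 49.1 CPM in lactate mice and rose by 0.77 (SE 0.13, edgeR with Benjamini-Hochberg adjusted p = 0.0024), while Rims2 fell. Rab3d, a Rab3 isoform of secretory cells, fell by 1.28 (SE 0.27) on the log2 scale, from 4.01 to 5.97 CPM in sham to 1.32 to 2.43 CPM in lactate mice. Synj2, the relative of Synj1, fell by 0.73 (SE 0.20), and Cadps, which primes dense-core vesicles and was named after its value was seen, fell by 0.47 (SE 0.11). The vesicle transporter genes Svop and Slc6a17 rose by 0.59 (SE 0.14) and 0.55 (SE 0.15), and the neurexin gene Nrxn2 by 0.58 (SE 0.14). For Slc6a17, sham mouse 1 at 212 CPM lay within the lactate range of 201 to 317 CPM. The clathrin adaptor genes Picalm and Ap2a2 rose by 0.53 (SE 0.13) and 0.48 (SE 0.13), beside 0.55 for Amph in the same comparison. The 20 further endocytosis genes, which include Picalm, Ap2a2 and Synj2, went both ways. Of them 12 had fitted values above 0 and 8 below 0, with a median of 0.08.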

How the data were processed

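Members, lists and tests were chosen with earlier results of these data known. Brain RNA of 12 mice was sequenced as full-length cDNA, amplified by 14 PCR cycles, on a nanopore instrument. The authors kept reads of at least 500 bp and a quality score of at least 7, removed ribosomal RNA, mapped with minimap2, polished with pinfish and compared isoforms with gffcompare. Groups and mouse numbers come from the labels. The submitters' processing notes list GRCm38 and DESeq 1.10.1. How reads were assigned to genes, the annotation and the use of strand are not given in the sources used here.

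The deposited count values per gene were made by the authors without normalization. Each deposited CPM value is the count divided by the total of its mouse, by the authors, within 4.75e-06 CPM. Left out were 4 lines without a gene, and 9 columns of P values, adjusted P values and fold changes of the authors' own comparisons. The number of unmapped per-sample columns was 0.

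Counts were tested with edgeR 4.0.16 under R 4.3.3 (glmQLFTest after TMM, keeping genes that reached 1 CPM in 4 or more of the 8 mice compared) over the whole table, with Benjamini-Hochberg adjustment. The SE of an edgeR log2 fold change was its absolute value divided by the square root of the F statistic. The 95% intervals used this SE and the t distribution with the total degrees of freedom of the test. Total counts of 6815920 to 10677224 set the counting error only, since reads carry no molecular identifiers. The script was tested on simulated data for vehicle against sham over 17019 genes, where 169 of 200 genes changed by 2-fold were recovered with 8 false calls. The simulation gave every gene the same relative spread, changed only genes of higher level and held no outlying mouse. The share recovered therefore need not hold for the real mice. Alternatives were other size factors and filters, DESeq2 1.42.0, limma 3.58.1, all mice in one fit, Ensembl identifiers only, the replicate number as a block, an unadjusted p with a fold change of 1.5, and each mouse left out. Values per mouse are given for called members and for the 3 uncalled members with the largest log2 fold change in each comparison, and for pathway genes the 8 largest called changes. Members added to these by range or overlap were chosen after their values were seen. Positions are those of GENCODE mouse release 21 and promoters those of RefSeq. Python 3.11.15, numpy 2.4.6, pandas 2.3.3 and matplotlib 3.10.9 were used.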

Additional observations from a re-analysis of the deposited data

Results flagged for a closer look

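In each group of 4 mice, each member was checked for a mouse whose gap to its neighbour took more of the range of the group than Dixon's 95% critical value allows, and 7 of 114 such groups met this, where chance gives about 1 in 20. Vehicle mouse 1 was the highest and far from the other vehicle mice for Syn1 at 206 CPM, Syt1 at 2246 CPM, Syt11 at 415 CPM, Slc17a7 at 512 CPM and Dnm1 at 824 CPM. Vehicle mouse 2, the mouse with the choroid plexus transcripts, was the lowest and apart for Vamp2 at 945 CPM. Lactate mouse 2 was the highest and apart for Rph3a at 449 CPM. None lay in the sham group. Of these 7 genes, Syt11 alone had an unadjusted p under 0.05 in a comparison, 0.0277 in lactate against sham by edgeR over 4 against 4 mice, and it was not called.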

How the results depend on the processing

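Over 114 member results and 2044 repeats with another setting, 2031 stayed on their side of the threshold, 10 lost a call and 3 gained one. The fitted values of 54 uncalled results lay on both sides of 0 over the settings, and those of the results called in any fit kept their sign. Stx1a and Rims2 were called in lactate against sham in all 17 fits with adjusted p. The number of members higher in lactate than in sham was 1, became 0 with limma, and ranged from 0 to 1 with each mouse left out, since Amph was lost without lactate mouse 1 or 2 or any single sham mouse and Syn2 was called without sham mouse 2. With the replicate block it was 2, Amph and Syn2, and the block changed no other call. Same-numbered mice are different animals and their deviations correlated between -0.174 and 0.176, so the numbers were not taken to pair mice. When called by unadjusted p and 1.5-fold change, 1 member (Syn3) was higher in vehicle than in sham, while 0 were higher and 0 were lower in lactate than in sham, as the 3 called members changed by less than 1.5-fold. The median log2 fold change of the members in lactate against sham was -0.091 without a filter and 0.0024 with Ensembl identifiers only. In lactate against vehicle it was -0.0052 with limma and -0.053 with Ensembl identifiers only, and ranged from -0.146 to 0.040 with each mouse left out, the latter without vehicle mouse 1. The cause of these shifts was not tested. Depth limits Syn3, with 1 to 20 counts, and 4 mice per group limit differences smaller than the intervals given.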
